A study of Mus musculus with 8 samples.

Results

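The genes described here cut the extracellular matrix or hold such cutting in check. They are 4 matrix metalloproteinases (Mmp9, Mmp10, Mmp13 and Mmp14), 3 genes of plasminogen activation (Plau, Plaur and Plat) and 3 tissue inhibitors of metalloproteinases (Timp1, Timp2 and Timp3). They were taken by symbol from the deposited table, where each has 1 row, and make up 10 of its 32574 genes. RNA was sequenced in 8 libraries of sorted epithelial cells from mouse skin epidermis, in 4 groups of 2: Lrig1 ablation, Lrig1 control, K14 ablation and K14 control. Ablation animals are labelled as carrying a basal lineage ablation, and control animals as wild type. The sources used here do not give what drives the ablation, the agent, the strain, the age, the time of sampling, or what K14 and Lrig1 name, so both serve only as names of populations. As background, K14 is the keratin made by the Krt14 gene in the basal layer, and the Lrig1 protein is found on stem cells of the hair follicle's upper part. Nothing in the labels tells whether the libraries of a group are different animals, so each p-value reflects a spread between libraries that could be technical.

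Matrix metalloproteinases are zinc enzymes that are made as inactive precursors and cleave collagens, laminins and other matrix proteins once activated. Urokinase (Plau) and tissue plasminogen activator (Plat) turn plasminogen into plasmin, a serine protease that dissolves fibrin and can activate metalloproteinase precursors. Urokinase does so at the cell surface when bound to its receptor (Plaur), and TIMP proteins bind active metalloproteinases and block them. In healing skin, keratinocytes at the wound edge are known to switch on several of these enzymes as they crawl over the wound bed.

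The promoters of the metalloproteinase genes Mmp10, Mmp13 and Mmp14 and of the receptor gene Plaur are shown because Mmp10 and Mmp13 each passed the threshold in a comparison below, while Mmp14 and Plaur passed in none. Each stretch is the 100 bases before the RefSeq start of the gene (GRCm38.p6), read 5′ to 3′ on the gene's strand, and capitals mark the AP-1 motif (TGACTCA or TGAGTCA, which read each other's opposite strand) and the TATA motif (TATAAA, gene's strand). Mmp10 is chr9:7502242-7502341, Mmp13 is chr9:7272414-7272513, Plaur is chr7:24462383-24462482 and Mmp14 is chr14:54431498-54431597, all on the plus strand.
Mmp10: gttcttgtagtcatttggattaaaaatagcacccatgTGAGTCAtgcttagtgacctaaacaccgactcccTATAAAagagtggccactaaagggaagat
Mmp13: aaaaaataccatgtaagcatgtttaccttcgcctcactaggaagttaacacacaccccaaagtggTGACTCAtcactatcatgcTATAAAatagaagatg
Plaur: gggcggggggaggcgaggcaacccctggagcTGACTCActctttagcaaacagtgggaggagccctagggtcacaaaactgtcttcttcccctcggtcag
Mmp14: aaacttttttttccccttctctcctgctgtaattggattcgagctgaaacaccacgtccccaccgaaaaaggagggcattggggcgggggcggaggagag
Promoters were at hand for 7 of the 10 members (also Timp1, Timp2 and Timp3). Over the 250 bases before the start, the AP-1 motif was found in Mmp10, Mmp13 and Plaur, and in 4.46% of all 32851 promoters of that length. TATAAA was found in Mmp10 and Mmp13, and in 7.59% of all promoters, or 12.4% where TTTATA counts as well. Timp2, the other member past the threshold with a promoter at hand, had neither the AP-1 motif nor TATAAA and is not shown. The GC box (GGGCGG or CCGCCC, each the other's opposite strand) was found in Mmp14, Plaur, Timp1, Timp2 and Timp3 but not in Mmp10 or Mmp13, against 32.7% of all promoters. No match overlapped one of another motif. A match is a description of the letters and shows no factor at work in these cells.

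Across the libraries the recovered depth was 6458636 to 11654135 reads, and the mitochondrial share ran between 2.34 and 6.89%. All 7 basal keratinocyte markers (Krt5, Krt14, Krt15, Col17a1, Itga6, Itgb4 and Trp63) had at least 3 reads in every library. Their summed level was 209178 and 90747 normalised reads in the Lrig1 ablation libraries 1 and 2, 107216 and 116747 in Lrig1 control, 214964 and 206410 in K14 ablation, and 180521 and 177686 in K14 control. The Lrig1 ablation libraries thus stood apart from each other, and the chi-square per gene between their reads was 39.5, against 2.58 for the Lrig1 control pair, while it was 27.7 for the K14 ablation pair and 1.57 for the K14 control pair. Markers of other cell types were present at lower levels. The myeloid and Langerhans list (10 genes) summed to 285 and 276 in Lrig1 ablation, 1058 and 1452 in Lrig1 control, 574 and 1788 in K14 ablation, and 496 and 660 in K14 control.

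Between the control populations, the metalloproteinase genes Mmp9 and Mmp13 were lower and the inhibitor gene Timp2 was higher in Lrig1 than in K14. After ablation Mmp10, which encodes stromelysin 2, was lower in Lrig1, and no member passed the threshold in K14. Of the 10 members 9 passed the filter on low values and were tested, and Timp1 did not. Tests were run with limma on log2(normalised read count + 1) over all 18140 tested genes, with a threshold of 0.05 on the Benjamini-Hochberg adjusted p. Leaving out any 1 control library leaves 1 library in its group, and over all genes far fewer then passed in every comparison. A call lost in that way below is thus not particular to the member. In Lrig1 control against K14 control 1 member was higher (6.52% of all tested genes were) and 2 were lower (2.27% of all tested genes; 8.79% in either direction). In Lrig1 ablation against Lrig1 control 1 was lower (3.3% of all tested genes; 4.06% in either direction). In K14 ablation against K14 control 0 passed (0.187% of all tested genes), with 1 at an unadjusted p under 0.05 in limma (12.8% of all tested genes). At the same adjusted threshold edgeR passed 0 members there (32 over all genes) and DESeq2 passed 1, Timp3 (221 over all genes, against 34 by limma). The median log2 fold change of the 9 tested members was -0.74 in Lrig1 control against K14 control, -0.52 in Lrig1 ablation and -0.24 in K14 ablation, against -0.00, -0.02 and -0.00 over all tested genes.

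**Figure D1:**
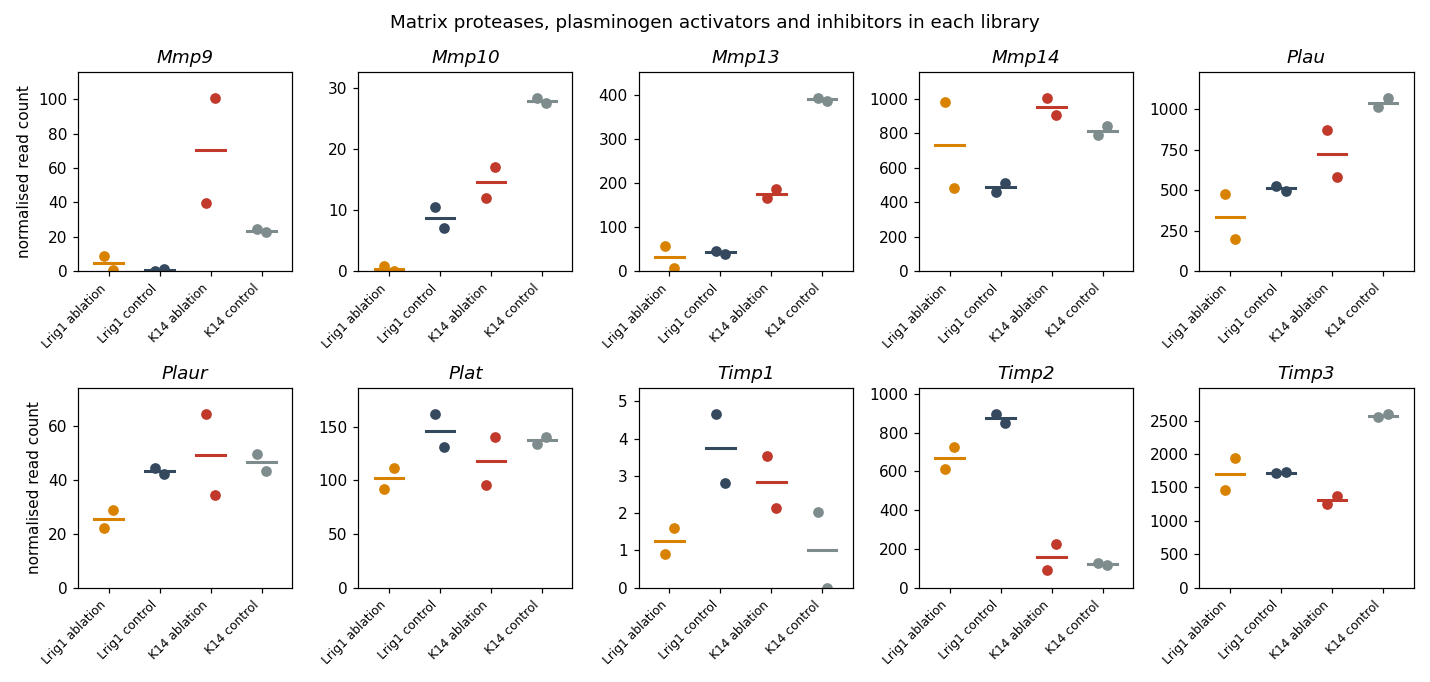
Normalised read count of each member in each library, with Lrig1 ablation, Lrig1 control, K14 ablation and K14 control along the horizontal axis and a vertical axis that starts at 0 and differs between panels. Points are libraries and bars are group means (n = 2 each); Timp2 is high in both Lrig1 groups and Mmp13 is highest in K14 control.

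Mmp9 encodes gelatinase B, which cleaves denatured collagen and the collagen of basement membranes (ENSMUSG00000017737, GRCm38 chromosome 2, 164940780 to 164955850, plus strand). It had 8.88 and 0.796 normalised reads in Lrig1 ablation, 0 and 1.41 in Lrig1 control, 39.6 and 101 in K14 ablation, and 24.4 and 22.6 in K14 control. Both K14 groups lay above both Lrig1 groups, and the K14 ablation libraries lay above the K14 control libraries without overlap, though they differed from each other by more than that gap. In Lrig1 control the log2 fold change over K14 control came to -3.98 ± 0.87 (SE; limma adjusted p = 0.0297). That difference rests on 1 read in the Lrig1 control libraries against 47 in the K14 control libraries, a ratio of 0.0271 with an exact 95% interval of 0.000673 to 0.159 for counting error only. The call was lost by edgeR (adjusted p = 0.0555) and without any 1 of the 4 control libraries (limma adjusted p = 0.118 to 0.201).

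Ablation did not move Mmp9 past the threshold in either population. Its log2 fold change was 1.44 ± 0.87 in Lrig1 (SE; limma adjusted p = 0.405) and 1.39 ± 0.87 in K14 (limma adjusted p = 0.535). The mean of these effects was 1.42 ± 0.61 (SE; limma adjusted p = 0.265), and it passed only when Lrig1 ablation 2 was left out (2.03, limma adjusted p = 0.0358). Mmp9 is also made by neutrophils, macrophages and Langerhans cells. K14 ablation 2, the library with the most Mmp9, also had the highest myeloid and Langerhans sum, of which Cd74 made up 944 and the antigen presentation gene H2-Aa 315 normalised reads, while the leukocyte gene Ptprc had 19.3 and the Langerhans gene Cd207 had 5.36. It had the highest neutrophil sum as well (143 normalised reads, against 32.6 to 70.9 in the other libraries), nearly all of it from 2 genes, S100a8 at 77.2 and S100a9 at 56.8 normalised reads. The other 6 neutrophil markers had 0 to 4.29 normalised reads there, with Ly6g and Retnlg at 0. The Lrig1 control libraries had the next highest myeloid and Langerhans sums (1058 and 1452), with Mmp9 at 0 and 1.41 normalised reads. They also had the most Ptprc (39.6 and 80.35) and Cd207 (34.9 and 24.0 normalised reads) of all libraries. K14 ablation 1 had more Ptprc than K14 ablation 2, at 35.4 against 19.3 normalised reads, and less Mmp9. The part of neutrophils, macrophages and Langerhans cells in the Mmp9 values was not tested.

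Mmp10 encodes stromelysin 2, a keratinocyte enzyme of the wound edge (ENSMUSG00000047562, chromosome 9, 7502352 to 7510240, plus strand). It had 0.887 and 0 normalised reads in Lrig1 ablation, 10.5 and 7.05 in Lrig1 control, 12.03 and 17.2 in K14 ablation, and 28.4 and 27.6 in K14 control. The 4 groups did not overlap, and in each population both ablation libraries lay below both control libraries. In Lrig1 the log2 fold change came to -2.81 ± 0.52 (SE; limma adjusted p = 0.0276). In reads this is 1 in the ablation libraries against 14 in the control libraries, a ratio of 0.0470 with an exact 95% interval of 0.00111 to 0.309. In K14 the value was -0.92 ± 0.52 (limma adjusted p = 0.498), and the mean effect over both populations passed at -1.86 ± 0.37 (limma adjusted p = 0.0404). It was the 1 member past the threshold in that comparison, where 2.02% of all tested genes were lower and 2.83% passed in either direction. The difference of the effects, Lrig1 minus K14, was -1.89 ± 0.73 (limma adjusted p = 0.289), with 0 members past the threshold in that comparison by limma, edgeR or DESeq2 (0.198% of all tested genes passed) and 2 at an unadjusted p under 0.05 in limma (15% of all tested genes).

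The Lrig1 call of Mmp10 was lost with a pseudocount of 5 (limma adjusted p = 0.0533), by edgeR (0.0507), with array weights (0.0889) and without any 1 of the 4 control libraries (0.0916 to 0.24). The mean effect lost its call without any 1 of the 4 control or the 2 K14 ablation libraries (0.0507 to 0.227), with no filter on low values (0.0749) and with a replicate block (0.0647). Between the controls, Lrig1 over K14, Mmp10 was at -1.59 ± 0.52 (limma adjusted p = 0.103).

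Mmp13 encodes collagenase 3, which cuts fibrillar collagen (ENSMUSG00000050578, chromosome 9, 7272514 to 7283331, plus strand), and lies on the same chromosome as Mmp10. It had 56.8 and 6.37 normalised reads in Lrig1 ablation, 46.6 and 39.5 in Lrig1 control, 166 and 187 in K14 ablation, and 394 and 387 in K14 control. K14 control was highest, K14 ablation next and both Lrig1 groups lowest, and the Lrig1 groups overlapped. Lrig1 control stood at a log2 fold change of -3.16 ± 0.77 over K14 control (SE; limma adjusted p = 0.0421). The threshold was missed without any 1 of the 4 control libraries (limma adjusted p = 0.198 to 0.24), without either K14 ablation library (0.0522 and 0.0529) and with no filter on low values (0.0547).

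The K14 ablation libraries averaged 176 ± 14.8 normalised reads of Mmp13 and the K14 control libraries 390.5 ± 5.03 (SD, n = 2 each). On the log2 scale they differed by -1.15 ± 0.77 (SE), which did not pass (limma adjusted p = 0.565); the fit shares 1 spread over all groups, and the Lrig1 ablation libraries lie far apart for this gene. Without Lrig1 ablation 1 or without Lrig1 ablation 2 the same value passed (limma adjusted p = 0.0274 and 0.0209), and in the K14 libraries alone it did not (0.0723). In Lrig1 the value was -1.09 ± 0.77 (limma adjusted p = 0.482). It fell to -2.57 without ablation library 1 (limma adjusted p = 0.00235) and was 0.40 without ablation library 2, so 1 library sets its direction.

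Mmp14 encodes a membrane-anchored metalloproteinase that activates the gelatinase made by Mmp2 at the cell surface (ENSMUSG00000000957, chromosome 14, 54431612 to 54445364, plus strand). It had 983 and 484 normalised reads in Lrig1 ablation, 462 and 515 in Lrig1 control, 1005 and 904 in K14 ablation, and 789 and 841 in K14 control. K14 ablation lay above K14 control without overlap, and the Lrig1 groups overlapped. No comparison passed: the log2 fold change was 0.50 ± 0.29 in Lrig1 ablation (SE; limma adjusted p = 0.383), 0.23 ± 0.29 in K14 ablation (limma adjusted p = 0.778) and -0.74 ± 0.29 in Lrig1 control against K14 control (limma adjusted p = 0.163). The 95% interval in K14 ablation, -0.44 to 0.89, leaves room for changes of either sign. In Lrig1 the value was 1.01 without ablation library 2 (limma adjusted p = 0.00632) and -0.01 without ablation library 1.

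Plau encodes urokinase (ENSMUSG00000021822, chromosome 14, 20836660 to 20843385, plus strand). It had 478 and 197 normalised reads in Lrig1 ablation, 527 and 498 in Lrig1 control, 872 and 580.0 in K14 ablation, and 1013 and 1071 in K14 control. In each population both ablation libraries lay below both control libraries, and the order of the groups, K14 control, K14 ablation, Lrig1 control, Lrig1 ablation, had no overlap. Plau differed by -0.74 ± 0.37 log2 units in Lrig1 (SE; limma adjusted p = 0.318) and -0.55 ± 0.37 in K14 (limma adjusted p = 0.57). The mean effect was -0.64 ± 0.26 (limma adjusted p = 0.235), and it passed only without Lrig1 ablation 1, at -0.96 (limma adjusted p = 0.0135). Lrig1 control against K14 control was at -1.02 ± 0.37 (limma adjusted p = 0.139).

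Plaur, the urokinase receptor gene (ENSMUSG00000046223, chromosome 7, 24462484 to 24475968, plus strand), had 22.2 and 28.7 normalised reads in Lrig1 ablation, 44.2 and 42.3 in Lrig1 control, 64.4 and 34.3 in K14 ablation, and 49.8 and 43.3 in K14 control. The Lrig1 ablation libraries lay below those of every other group, and the K14 groups overlapped. Plaur differed by -0.75 ± 0.35 log2 units in Lrig1 (SE; limma adjusted p = 0.284), 0.02 ± 0.35 in K14 (limma adjusted p = 0.988) and -0.10 ± 0.35 between the controls, Lrig1 over K14 (limma adjusted p = 0.905). Plat, the tissue plasminogen activator gene (ENSMUSG00000031538, chromosome 8, 22757727 to 22782844, plus strand), had 92.3 and 111 normalised reads in Lrig1 ablation, 162 and 131 in Lrig1 control, 95.5 and 140.4 in K14 ablation, and 134 and 141 in K14 control. Neighbouring groups overlapped throughout its order, and the Lrig1 ablation libraries lay below the Lrig1 control libraries. Its log2 fold change was -0.52 ± 0.24 in Lrig1 (SE; limma adjusted p = 0.285), -0.24 ± 0.24 in K14 (limma adjusted p = 0.707) and 0.08 ± 0.24 between the controls, Lrig1 over K14 (limma adjusted p = 0.881; 95% interval -0.47 to 0.64).

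Timp2, an inhibitor that also helps MMP14 to activate the Mmp2 product (ENSMUSG00000017466, chromosome 11, 118301069 to 118355740, minus strand), separated the populations. It had 613 and 727 normalised reads in Lrig1 ablation, 896 and 851 in Lrig1 control, 90.6 and 223 in K14 ablation, and 126 and 118 in K14 control. Every Lrig1 library lay above every K14 library, and the K14 groups overlapped. In Lrig1 control the log2 fold change over K14 control was 2.83 ± 0.35 (SE; limma adjusted p = 0.00484), the 150th smallest p of all tested genes. Without any 1 of the 4 control libraries the call was lost, as were most calls over all genes in that comparison. It held under every other alternative listed in the methods. Ablation gave -0.39 ± 0.35 in Lrig1 (limma adjusted p = 0.597) and 0.22 ± 0.35 in K14 (limma adjusted p = 0.832).

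Fibroblasts and endothelial cells also make TIMP2. The endothelial and mural list (9 genes) summed to 1193 and 1221 normalised reads in Lrig1 ablation, 1320 and 1455 in Lrig1 control, 792 and 1100 in K14 ablation, and 766 and 827 in K14 control. The largest share of each sum came from Cspg4, listed as a mural gene. It had 1117 and 1067 normalised reads in Lrig1 ablation, 693 and 723 in Lrig1 control, 665 and 1025 in K14 ablation, and 672 and 759 in K14 control. Rgs5 and Acta2, mural genes of the same list, had 0 to 3.05 and 5.82 to 30.4 normalised reads over the libraries, so the sums mostly follow Cspg4. The list's endothelial genes had another pattern than Cspg4. Cdh5, a junction gene of endothelial cells, had 4.44 and 3.18 normalised reads in Lrig1 ablation, 93.1 and 113 in Lrig1 control, 7.07 and 8.58 in K14 ablation, and 3.05 and 3.94 in K14 control, and Kdr was at 0 in both K14 control libraries. Between the controls 5 of its 8 tested genes were higher in Lrig1 (Vwf, Tek, Cdh5, Emcn and Kdr; 6.52% of all tested genes were). In Lrig1 ablation 4 of the 8 fell (Vwf, Cdh5, Emcn and Kdr, against 3.3% of all tested genes), with log2 fold changes of -5.35 to -3.78. Timp2 stood at 613 and 727 normalised reads there. Cdh5, Tek and Emcn passed the filter on low values only with the Lrig1 control libraries, where they are high. Their calls, and so both counts, are not independent of that filter. The fibroblast list (9 genes) summed to 1048 and 946 in Lrig1 ablation, 686 and 749 in Lrig1 control, 993 and 1131 in K14 ablation, and 877 and 938 in K14 control. Most of each sum came from Thy1 and Fbln1. Of its 7 tested genes 4, Col1a1, Col3a1, Pdgfra and Fbln1, were higher in Lrig1 control than in K14 control (6.52% of all tested genes were). Thy1 was the 1 tested gene of the list with a negative value there. It had 217 and 207 normalised reads in Lrig1 control against 668 and 698 in K14 control (log2 fold change -1.68 ± 0.45, limma adjusted p = 0.0577). Pdgfra, too, passed the filter only with the Lrig1 control libraries. The part of fibroblasts and endothelial cells in Timp2 was not tested. In such libraries more cells of a type and more RNA per cell cannot be told apart.

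Timp3 encodes the inhibitor that stays bound to the matrix and also blocks ADAM proteases (ENSMUSG00000020044, chromosome 10, 86300372 to 86349506, plus strand). It had 1462 and 1934 normalised reads in Lrig1 ablation, 1716 and 1732 in Lrig1 control, 1247 and 1375 in K14 ablation, and 2554 and 2599 in K14 control. K14 control was highest and K14 ablation lowest, both Lrig1 groups lay between them, and these overlapped. In K14 the log2 fold change was -0.98 ± 0.16 (SE; 95% interval -1.35 to -0.60), with a limma adjusted p of 0.0857, the 65th smallest p of all tested genes. It did not pass the threshold, and it passed with DESeq2 (adjusted p = 0.001), with array weights (0.00323) and without Lrig1 ablation 1 or 2 (0.00765 and 0.00767). In Lrig1 the value was -0.04 ± 0.16 (limma adjusted p = 0.932), and the difference of the effects, Lrig1 minus K14, was 0.94 ± 0.23 (limma adjusted p = 0.133). That difference passed without Lrig1 ablation 1 (1.14, limma adjusted p = 0.0152) or 2 (0.74, 0.0461). The mean effect was -0.51 ± 0.12 (limma adjusted p = 0.0618), and Lrig1 control against K14 control was at -0.58 ± 0.16 (limma adjusted p = 0.068).

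Timp3 lies inside Syn3, a synapsin gene on the opposite strand, and the sources used here do not give the strand setting of the counting. Syn3 had 534 and 607 normalised reads in Lrig1 ablation and 721 and 682 in Lrig1 control. In K14 ablation it had 276 and 459, and in K14 control 751 and 794. Its log2 fold change in K14 ablation was -1.11 ± 0.23 (SE), with a limma adjusted p of 0.139. The overlap was taken from whole gene spans, and overlap of exons was not checked. Whether the counting could mix reads of the pair is thus not known. Timp1, an inhibitor that is secreted and soluble (ENSMUSG00000001131, chromosome X, 20870166 to 20874735, plus strand), was close to undetected. It had 0.887 and 1.59 normalised reads in Lrig1 ablation, 4.66 and 2.82 in Lrig1 control, 3.54 and 2.14 in K14 ablation, and 2.03 and 0 in K14 control. All 8 libraries together held 18 reads of it, and 2 libraries reached 3 reads, so no difference was detectable at this depth. Timp1 also lies within Syn1, on the opposite strand, and Timp2 overlaps Cep295nl, a gene on its own strand with at most 48.6 normalised reads. Cep295nl had 13.3 and 48.6 normalised reads in Lrig1 ablation and 16.3 and 36.7 in Lrig1 control. In K14 ablation it had 7.78 and 5.36, and in K14 control 2.03 and 0. Between the controls it was higher in Lrig1, by 3.87 ± 0.79 (SE), with a limma adjusted p of 0.0234. Its part in the Timp2 counts was not tested.

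**Figure D2:**
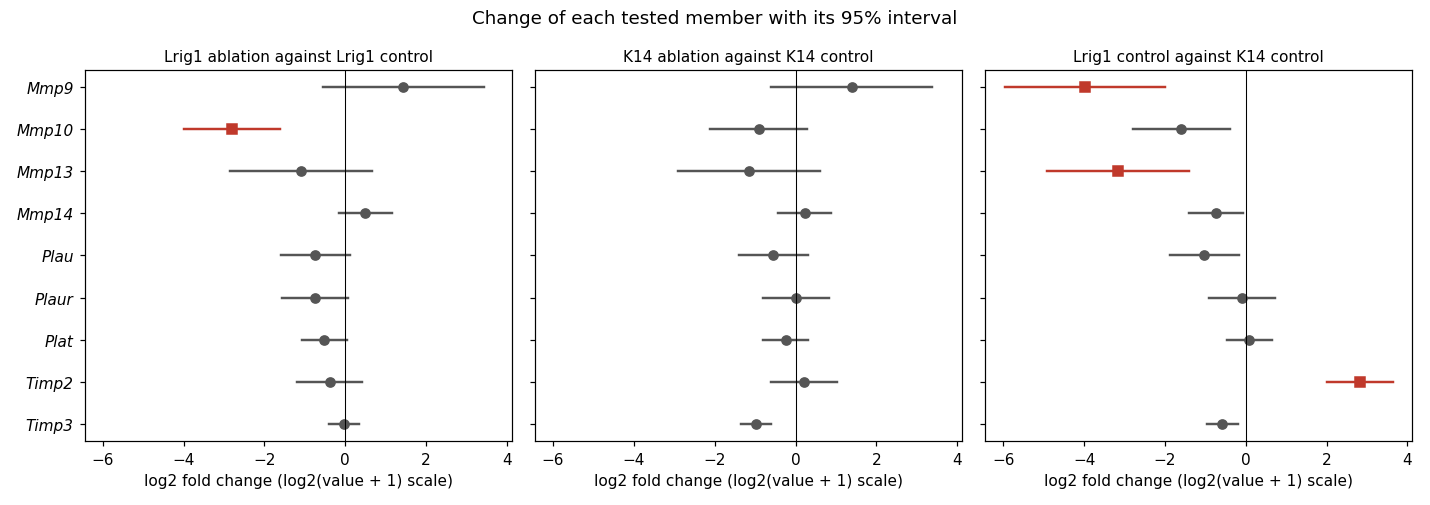
Log2 fold change (horizontal axis, log2(value + 1) scale) of the 9 tested members in Lrig1 ablation against Lrig1 control, K14 ablation against K14 control and Lrig1 control against K14 control, with 95% intervals from limma. Squares mark an adjusted p under 0.05: Mmp10 in Lrig1 ablation, and Mmp9, Mmp13 and Timp2 between the control populations.

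To set genes side by side, levels were divided by the total length of each gene's exons. In Lrig1 ablation Timp3 was at 208 ± 41.0, Timp2 at 172 ± 20.6, Plau at 143 ± 84.2 and Mmp14 at 123 ± 59.2 normalised reads per kb (SD, n = 2), with spreads that overlap in part. In Lrig1 control the highest levels were Timp2 at 224 ± 8.16, Plau at 217 ± 8.89 and Timp3 at 212 ± 1.43 normalised reads per kb, and Mmp14 followed at 81.9 ± 6.21 (SD, n = 2). In K14 ablation Plau led with 307 ± 87.1, ahead of Timp3 at 161 ± 11.2 and Mmp14 at 160.2 ± 12.1 normalised reads per kb (SD, n = 2). In K14 control Plau was highest at 440.2 ± 17.5 and Timp3 next at 316 ± 3.91, with Mmp13 at 146 ± 1.88 and Mmp14 at 137 ± 6.13 normalised reads per kb (SD, n = 2). Mmp13 stood at 16.1 ± 1.88 normalised reads per kb in Lrig1 control, far below Timp2 there, while in K14 control Timp2 stood at 31.3 ± 1.41, below Mmp13. Plat and Plaur stayed between 8.48 and 25.9 normalised reads per kb in all 8 libraries.

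**Figure D3:**
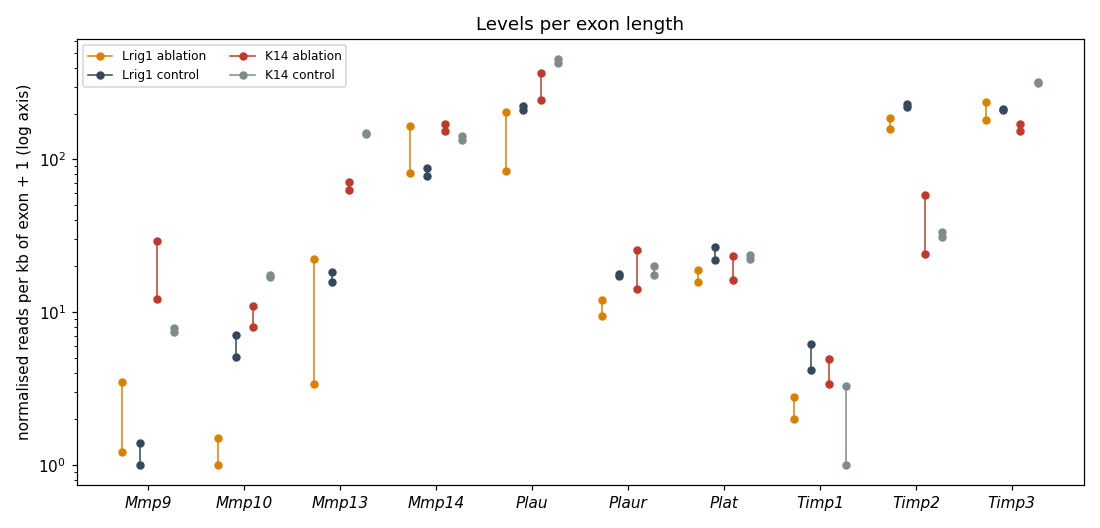
Normalised reads per kb of exon plus 1 (log axis) for each member along the horizontal axis, with 1 point per library and a line joining the 2 libraries of a group. Lrig1 ablation, Lrig1 control, K14 ablation and K14 control stand from left to right within each gene; Plau in K14 control is highest, and Mmp9 in Lrig1 control, Mmp10 in Lrig1 ablation and Timp1 in K14 control each have 1 library at 0.

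The members were then compared with each other over the 8 libraries, which share their scaling and group structure, so the values only describe these libraries. Mmp13 and Plau ran closest together, with a Pearson correlation of 0.958 on the log2 scale, and Mmp10 correlated with Plau at 0.886 and with Mmp13 at 0.882. Mmp9 correlated with Mmp14 at 0.887. The lowest values all involved Timp2, at -0.838 with Mmp9 and -0.829 with Mmp13. Over all tested genes, Mmp14 was most like Rras2, a Ras-family GTPase gene, Thoc3, and Rrm2, a subunit of ribonucleotide reductase, with correlations of 0.992, 0.9911 and 0.9905. Plau was most like Bcl10, an adaptor of NF-kappaB signalling, the GTPase gene Rap1b and the G protein gene Gna14 (0.9931, 0.9919 and 0.9905). Timp3 was most like the polarity gene Pard3b, Fgfr1op and the predicted gene Gm42878 (0.985, 0.966 and 0.9637).

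Among other genes of the plasminogen system, Serpinb2, which encodes plasminogen activator inhibitor 2, fell in Lrig1 ablation and in the mean of both ablation effects. It had 1267 and 868 normalised reads in Lrig1 ablation, 4186 and 4006 in Lrig1 control, 2573 and 962 in K14 ablation, and 7021 and 6816 in K14 control. In both populations the ablation libraries lay below the control libraries without overlap. Its log2 fold change was -1.96 ± 0.40 in Lrig1 (SE; limma adjusted p = 0.0365), -2.14 ± 0.40 in K14 (limma adjusted p = 0.117, DESeq2 adjusted p = 7.56e-06) and -2.05 ± 0.28 for the mean effect (limma adjusted p = 0.0125). The Lrig1 call was lost without any 1 of the 4 control libraries or Lrig1 ablation 2 (limma adjusted p = 0.0704 to 0.262), and the mean effect without any 1 of the control libraries (0.0896 to 0.0999). Of the 13 listed genes of this system 9 were tested, and 1 fell in Lrig1 ablation (3.3% of all tested genes did). In K14 ablation 0 passed by limma (0.187% of all tested genes did), with 2 at an unadjusted p under 0.05 in limma (12.8% of all tested genes). There edgeR passed 0 (32 over all genes) and DESeq2 passed 1, Serpinb2 (221 over all genes). The collagen receptor gene Mrc2 was lower in Lrig1 control than in K14 control, at -1.68 ± 0.43 (SE; limma adjusted p = 0.0486). Anxa2, a plasminogen-binding annexin, and the scavenger receptor gene Lrp1, which with Serpinb2 had the highest mean read counts of the list, passed in no comparison.

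Of the other 19 metalloproteinase genes listed 18 are in the table and 11 were tested, with 0 past the threshold in either ablation comparison by limma, edgeR or DESeq2. At an unadjusted p under 0.05 in limma, 3 passed in Lrig1 ablation (20.1% of all tested genes) and 3 in K14 ablation (12.8% of all tested genes). Mmp2, which encodes gelatinase A, had the highest mean read count over the 8 libraries, at 494 and 375 normalised reads in Lrig1 ablation, 587 and 530.0 in Lrig1 control, 280.2 and 423 in K14 ablation, and 523 and 547 in K14 control. Its mean ablation effect was -0.50 ± 0.16 (SE; limma adjusted p = 0.136). Mmp15 and Mmp28 came next by that mean and passed in no comparison. Mmp3, the stromelysin 1 gene, named after its values were seen, had more reads than Mmp2 in K14 control, with 49.7 and 4.78 normalised reads in Lrig1 ablation, 73.3 and 119.8 in Lrig1 control, 116 and 85.8 in K14 ablation, and 564 and 610.4 in K14 control. It differed by -2.47 ± 0.83 in Lrig1 ablation (SE; limma adjusted p = 0.145) and by -2.54 ± 0.83 in K14 ablation (limma adjusted p = 0.283), neither past the threshold. Mmp1b, a collagenase-like gene related to Mmp1a, had 0 and 2.82 normalised reads in Lrig1 control against 30.5 and 23.6 in K14 control. It was lower in Lrig1 control (log2 fold change -3.83 ± 0.93, limma adjusted p = 0.0418). It passed the filter on low values only through the K14 control libraries, where it is high, so the call is not independent of that filter. How the counting treated reads that match both genes is not given.

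Of the 16 ADAM and ADAMTS genes, which shed surface proteins or cut proteoglycans, 11 were tested. Adam15, an adhesion-type ADAM, fell in Lrig1 ablation (log2 fold change -1.04 ± 0.13), with 430.4 and 477 normalised reads against 959 and 909 in Lrig1 control (limma adjusted p = 0.00852). In Lrig1 control against K14 control the aggrecan-cutting gene Adamts5 was higher by 5.16 ± 0.58, at 407 and 420.1 against 8.12 and 13.8 normalised reads, while Adam8 and Adamts9 were lower (-2.003 ± 0.47 and -1.001 ± 0.21). The shedding proteases Adam10 and Adam17 and the gene Adamts1, highest by mean read count in the list, passed in no comparison. Of 10 inhibitors and regulators of metalloproteinases 7 were tested. Pcsk6, a proprotein convertase, was higher in Lrig1 control than in K14 control by 4.12 ± 0.36 (1023 and 1053 against 57.9 and 60.1 normalised reads). Spock2, a proteoglycan, had a mean ablation effect of -1.48 ± 0.28 (limma adjusted p = 0.0371), made of -0.47 ± 0.40 in Lrig1 (limma adjusted p = 0.562) and -2.49 ± 0.40 in K14 (limma adjusted p = 0.0741). The difference of these effects, Lrig1 minus K14, was 2.01 ± 0.56 (limma adjusted p = 0.173). Cd44, Furin and Bsg, highest by mean read count in that list, passed in no comparison.

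Of the 6 membrane serine proteases and their inhibitors 5 were tested. Spint1, an inhibitor of matriptase, fell in Lrig1 ablation (log2 fold change -1.07 ± 0.17, limma adjusted p = 0.0158), and Spint1, Prss8 and St14, the matriptase gene, were higher in Lrig1 control than in K14 control by 1.51 ± 0.17, 1.91 ± 0.43 and 0.78 ± 0.13. Spint2, highest by mean read count, passed in no comparison. Of 7 cathepsins, proteases of the lysosome, 6 were tested, and Ctsd and Ctss fell in Lrig1 ablation, with log2 fold changes of -0.84 ± 0.16 and -3.26 ± 0.42. Both were higher in Lrig1 control than in K14 control, and Ctss, a cathepsin of antigen-presenting cells, was the 1 gene of the 7 pathway lists whose ablation effects differed (-5.93 ± 0.59, limma adjusted p = 0.0384). Like the myeloid and Langerhans sums it was higher in Lrig1 control than in Lrig1 ablation, with 12.4 and 8.76 normalised reads in Lrig1 ablation, 82.7 and 142 in Lrig1 control, 38.2 and 54.7 in K14 ablation, and 5.08 and 7.88 in K14 control; the part of these cells was not tested. Ctsb and Ctsl, next to Ctsd by mean read count, passed in no comparison.

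All 11 listed matrix substrates were tested. Hspg2, which encodes the basement membrane proteoglycan perlecan, rose in both ablation groups, by 0.96 ± 0.15 in Lrig1 (limma adjusted p = 0.0144) and by 1.17 ± 0.15 in K14 (limma adjusted p = 0.0305). The tenascin C gene Tnc had a mean ablation effect of 1.26 ± 0.23 (limma adjusted p = 0.0346). In Lrig1 control against K14 control Fn1, the fibronectin gene, was higher (3.74 ± 0.51), and the laminin gene Lama3 (-1.04 ± 0.20), the anchoring fibril collagen gene Col7a1 (-1.62 ± 0.21) and Tnc (-1.91 ± 0.33) were lower. Col17a1, the hemidesmosome collagen and highest by mean read count in the list, passed in no comparison. Across the 7 pathway lists 21 genes gave 30 calls over the 5 comparisons, among them the mean ablation effect on Hspg2 (1.07 ± 0.10, limma adjusted p = 0.00324). Over all tested genes 8.79% passed in Lrig1 control against K14 control, 4.06% in Lrig1 ablation and 0.187% in K14 ablation. For the mean effect 2.83% passed, and for the difference of effects 0.198%. With any 1 control library left out most of the 30 calls were lost, and over all genes far fewer passed in every comparison. The losses are thus not particular to these lists. Under any alternative 0 of the calls changed sign.

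**Figure D4:**
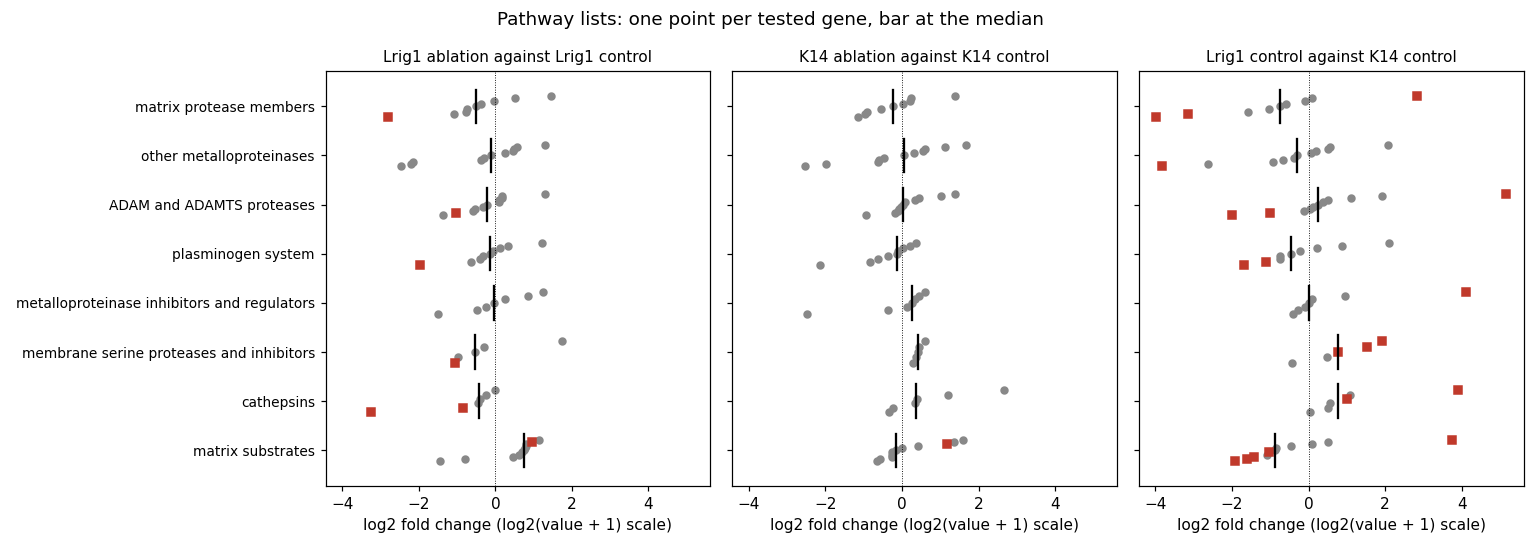
Log2 fold change (horizontal axis, log2(value + 1) scale) of every tested gene of the matrix protease members and 7 pathway lists in the same 3 comparisons, with 1 point per gene and a black bar at each list's median. Red squares mark a limma adjusted p under 0.05; Hspg2 among the matrix substrates is the 1 red square in K14 ablation.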

How the data were processed

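The deposited table holds a normalised signal per gene for 8 libraries, and the values of each library are whole multiples of 1 step (100% within 0.001), from which whole reads were recovered. The authors used Trimmomatic, STAR, Picard and HTSeq (0.11.1) with GRCm38 (mm10), per the submitters' processing notes; the sources used here give neither their roles nor the annotation, strand setting or size factors. The 4 ablation columns bear a word that the titles lack, and each was matched to the ablation titles of its population, the only ones left; 1.1 was read as replicate 1.

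For this report limma 3.58.1 (R 4.3.3, variance trend, two-sided) was fitted to log2(value + 1) for the 4 group means over 8 libraries, with 4 residual and 4.13 prior degrees of freedom. A gene was tested if it reached a 1e-06 share of the summed values (7.25 to 9.10 normalised reads) in 2 or more libraries. Fold changes understate low genes. Positions and exon lengths came from GENCODE M21, which lists 32443 of the gene IDs. Where a symbol had more than 1 row (Itgam, Klkb1), the row GENCODE gives that symbol was used. Named genes were the members, each list gene past the threshold, the 3 genes of each list with the highest mean and, for the member of each role with the highest mean, its 3 most correlated genes. Some list genes that the rule names are not reported here. Members and lists were chosen with earlier results of these data known. The fit was tested on simulated data. The alternatives were edgeR 4.0.16 and DESeq2 1.42.0 on the recovered reads, pseudocounts of 0.5 and 5, no filter, library totals, TMM factors, array weights, the compared groups alone, a replicate block and each library left out. On the recovered reads edgeR called 1396 genes in Lrig1 control against K14 control, 588 in Lrig1 ablation and 32 in K14 ablation. Whether reads carried molecular identifiers is not stated, so intervals cover counting error only.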

Additional observations from a re-analysis of the deposited data

Results flagged for a closer look

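Timp1 met a rule on effects that differ between populations: both Lrig1 ablation libraries lay below both Lrig1 control libraries, and both K14 ablation libraries lay above both K14 control libraries. The ablation minus control difference in mean normalised reads, Lrig1 minus K14, was -4.32. It was not tested, and it rests on 18 reads over 8 libraries. In whole reads, Lrig1 ablation 2 and Lrig1 control 2 held 2 each, and K14 ablation 2 and K14 control 1 held 2 each. These libraries are thus apart only through the scaling.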

How the results depend on the processing

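In K14 ablation, 0 members passed, against 1 by DESeq2 and 1 with array weights, and 0 to 2 with 1 library left out. In Lrig1 ablation, 1 passed, against 0 with a pseudocount of 5, by edgeR, by DESeq2 (which gave Mmp10 no adjusted p), with array weights and with the compared groups alone (where Mmp10 was not tested), and 0 to 3 with 1 library left out. For the mean effect, 1 passed, against 0 with no filter, 0 with the replicate block and 2 with array weights, and 0 to 4 with 1 library left out. For the difference of effects, 0 passed, and 0 to 2 with 1 library left out. In Lrig1 control against K14 control, 3 passed, against 7 with array weights and 7 with the compared groups alone, and 0 to 7 with 1 library left out; without any 1 control library none did. Over all genes, Lrig1 control against K14 control had 6747 calls with array weights and 7323 with the compared groups alone, against 1594. K14 ablation had 221 by DESeq2 and 477 with array weights, against 34. Lrig1 ablation had 855 with a pseudocount of 5, 588 by edgeR and 997 by DESeq2, against 737. With array weights it had 451, and with the compared groups alone 170. The mean effect had 350 with no filter, 348 with the replicate block and 812 with array weights, against 513. The cause was not tested.

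Signs turned (log2 fold changes) for Timp3 in Lrig1 ablation, with library totals (0.21), by edgeR (0.017) and over the libraries left out (-0.24 to 0.17), and for Plat between the controls, with library totals (-0.0097) and over the libraries left out (-0.067 to 0.23). With 1 library left out, Lrig1 ablation gave -2.57 to 0.40 for Mmp13 and -0.011 to 1.01 for Mmp14, and K14 ablation gave -0.52 to 0.031 for Plat, -0.43 to 0.46 for Plaur and -0.43 to 0.86 for Timp2. With library totals the median of all genes in Lrig1 ablation was 0.23, against -0.02 without.

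Over all genes, calls in K14 ablation (34) ran from 0 to 740 over the alternatives, in Lrig1 ablation (737) from 5 to 2498, for the mean effect (513) from 44 to 2592, for the difference (36) from 0 to 2022 and in Lrig1 control against K14 control (1594) from 1 to 7323. Between groups, the deviations of libraries that share a replicate number correlated at -0.05 to 0.08. The control libraries of a pair differed little (chi-square per gene 1.57 in K14 and 2.58 in Lrig1). Their correlations therefore cannot tell whether the numbers pair libraries. The replicate block gave 21, 504, 348, 1 and 1325 calls, in the order of the comparisons above. With 2 libraries a group and members such as Timp1 and Mmp10 at a few reads, depth limits what could be detected.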
